A study of Mus musculus with 16 samples.

Results

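The genes described here are the members of 7 mouse solute carrier families that move amino acids and related molecules across membranes: Slc1, Slc3, Slc6, Slc7, Slc36, Slc38 and Slc43. They were taken by symbol, with no measured value used, and came to 61 of the 19799 genes with a symbol in the count table. Of these, 55 had enough reads to be tested, among 16245 tested genes. The other 6, among them the light chains Slc7a9 and Slc7a10, did not pass the filter on low counts. Not every gene taken by symbol carries an amino acid. Slc7a6os is a neighbour of Slc7a6 on the opposite strand and no transporter, and the Slc6 family also holds carriers of creatine, taurine, GABA and monoamines.

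The study used pmi28, mouse muscle precursor cells that join into multinucleated fibres in culture, carrying either doxycycline-inducible msx2 together with GFP (the msx2 line) or inducible GFP alone (the GFP line), and sequenced their RNA. Each line gave 2 libraries of uninduced myoblasts, 3 of uninduced isolated myotubes and 3 of isolated myotubes with the transgene induced, 16 libraries in all. Msx2 is a homeodomain transcription factor, and the GFP line served as the control for doxycycline, its medium and GFP. Myoblasts grew in 20% fetal bovine serum, myotubes formed in 10% horse serum and were trapped on a mesh and cultured with AraC, a drug that kills dividing cells, and induction was doxycycline at 2 µg/ml for 24 h in the growth medium. The labels do not give the medium of the uninduced myotubes at that time, and they do not say whether replicates were separate cultures. The p-values therefore measure the spread between these libraries, which may be technical. That spread was uneven, by chi-square per degree of freedom between the counts of 2 libraries (genes with 20 or more reads over the pair). The 2 GFP-line myoblast libraries gave 1.949, and all other pairs within groups gave 10.5 to 31.26. Comparisons that use GFP-line myoblasts rest on that pair, and the reason for its small spread was not tested.

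Amino acid carriers work by different means. Heteromeric exchangers pair a light chain of the Slc7 family, which moves the substrate, with a heavy chain, Slc3a1 or Slc3a2, which holds it at the membrane, and they trade one amino acid for another. Sodium-coupled carriers such as Slc38a1 and Slc38a2 load the cell, facilitated carriers such as Slc43a1 and Slc43a2 let branched-chain and aromatic amino acids move down their gradient, and Slc36a1 and Slc38a9 sit on lysosomes. In muscle, leucine uptake feeds protein synthesis, taurine and creatine are accumulated by Slc6a6 and Slc6a8, and cystine taken up through Slc7a11 supplies glutathione.

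Libraries held 19784873 to 33092666 reads in genes, of which the members took 0.354 to 0.431%. Levels are CPM, read counts scaled to library size, with means ± SD. The Msx2 gene stood at 1340 to 1510 CPM in the 3 induced msx2-line libraries, at 12.1 to 16.8 CPM in uninduced libraries of that line and at 0.803 to 1.59 CPM in the GFP line. Summed over 6 myotube markers, levels were 20900 to 24300 CPM in uninduced and GFP-line myotubes, 11500 to 13800 CPM in induced msx2-line myotubes and 368 to 1070 CPM in myoblasts. Of these 6 markers 4 fell on msx2 induction, with embryonic myosin Myh3 going from 8270 ± 593 to 2080 ± 320 CPM (n = 3 and 3). Summed markers of myoblasts and cycling cells were 281 to 351 CPM in all myotube libraries and 1170 to 1470 CPM in myoblasts. In myotubes the sum came mostly from Myod1, with group means of 261 to 288 CPM there and 180 and 262 CPM in myoblasts. Group means of the cycling genes Mki67, Ccnb1 and Top2a were 2.79 to 18.9 CPM in myotubes and 139 to 553 CPM in myoblasts. Of these 6 genes Pax7 rose (log2 change 1.5) and Myf5 fell (-1.98) on msx2 induction. Summed markers of fibroblasts (16.3 to 28.6 CPM), leukocytes (19.5 to 28.9 CPM), endothelium (6.02 to 8.91 CPM), adipocytes (0.357 to 1.56 CPM), astrocytes (0.267 to 2.83 CPM) and gut and kidney epithelium (2.94 to 15.8 CPM) were low throughout, and of the genes in these lists Itgam, in the leukocyte list, fell on msx2 induction (log2 change -0.34). The neuron sum, 93.1 to 418 CPM, came mostly from Stmn2, which fell on msx2 induction (log2 change -1.54). In bulk RNA, fewer cells of a type and less RNA per cell cannot be told apart.

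The summed level of all 61 members was 3534 ± 18.3 CPM in uninduced and 3730 ± 57.8 CPM in induced msx2-line myotubes (n = 3 each), and 3601 ± 55 and 3590 ± 40.1 CPM in the GFP line. Myoblasts held more, 5049 ± 75.2 CPM in the msx2 line and 4447 ± 63.2 CPM in the GFP line (n = 2 each). Per kilobase of exon, which allows genes to be compared, the glutamate and cysteine carrier Slc1a1 led in every group, from 175 CPM per kb in induced msx2-line myotubes to 311 in msx2-line myoblasts. Behind it in uninduced myotubes of the msx2 line came Slc7a5 at 87.1, Slc7a15 at 80.5, Slc6a6 at 74.2, Slc38a2 at 73.6 and Slc3a2 at 62.8 CPM per kb. In induced myotubes of that line Slc7a5, at 172 CPM per kb, stood beside Slc1a1. Many members were nearly silent: 17 to 25 of the 61 had a group mean below 1 CPM, depending on the group.

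Induction of msx2 in myotubes changed 24 of the 55 tested members, with 15 higher and 9 lower (edgeR's quasi-likelihood F-test, Benjamini-Hochberg adjusted over all 16245 genes, threshold 0.05). Over all genes 32.5% were called, 16.2% higher and 16.3% lower, against 43.6% of the members, 27.3% higher and 16.4% lower. The median log2 change of the members was 0.05, beside -0.01 over all genes, and the median size of change was 0.34 beside 0.22. Leaving aside Slc6a7, which stayed below 1 CPM, the largest rises were those of the glutamine carrier Slc38a3, the facilitated carriers Slc43a2 and Slc43a1 and the exchanger light chain Slc7a5. The largest falls were those of the neutral amino acid carrier Slc6a19 and the cystine exchanger Slc7a11. Counts of members depended on single libraries: 19 were called without uninduced replicate 3 and 25 without uninduced replicate 2. Over all genes 4595 and 5136 were called in these fits, against 5287 in the main fit.

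**Figure D1:**
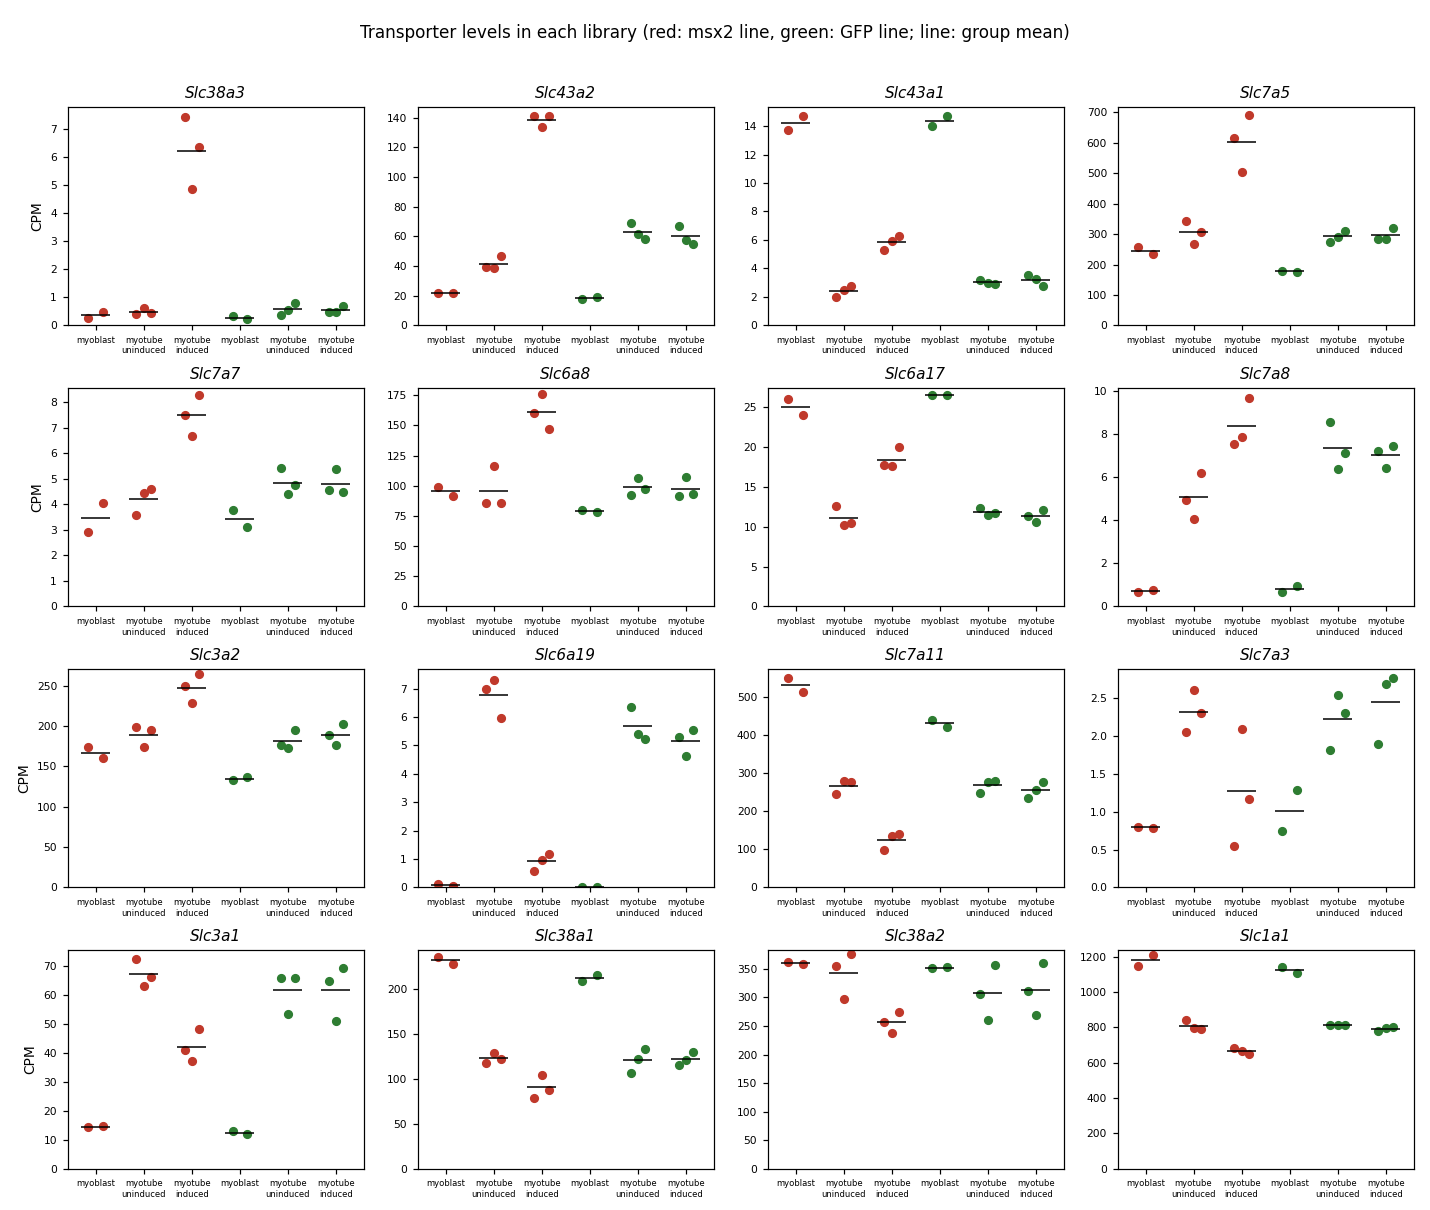
Level of 16 members in each of the 16 libraries, in CPM on a linear axis that starts at 0 in each panel. Points are libraries (red for the msx2 line, green for the GFP line) and black lines are group means. In the 3 induced msx2-line libraries Slc38a3, Slc43a2 and Slc7a5 stand apart upward and Slc7a11 downward. Slc6a19 in these libraries lies below all other myotube libraries and above the myoblast libraries.

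Among the heteromeric exchangers, the branched-chain and aromatic amino acid light chain Slc7a5 (LAT1) rose with its heavy chain Slc3a2. Slc7a5 stood at 342, 269 and 308 CPM in the uninduced and at 615, 504 and 692 CPM in the induced libraries of the msx2 line. All induced libraries lay above all uninduced ones, with a log2 change of 0.98 (SE 0.11, adjusted p = 3.53e-06). Slc3a2 went from 199, 174 and 195 CPM to 250, 228 and 264 CPM, again without overlap (log2 change 0.38, SE 0.07, adjusted p = 0.000914). The related light chains Slc7a8 (LAT2) and Slc7a7 (y+LAT1, which trades cationic for neutral amino acids) rose from much lower levels. Slc7a8 was at 4.94, 4.05 and 6.2 CPM before and 7.56, 7.84 and 9.68 CPM after induction (log2 change 0.72, SE 0.16, adjusted p = 0.0028). Slc7a7 was at 3.59, 4.44 and 4.61 CPM and then at 7.52, 6.69 and 8.29 CPM (log2 change 0.82, SE 0.15, adjusted p = 0.000514). For both genes the induced libraries lay above every uninduced library of the line. An exon of Slc7a7 overlaps Oxa1l on the opposite strand, and whether counting used strand is not given in the sources used here. The close relative Slc7a6 (y+LAT2), at 66.8, 65.2 and 65.9 CPM uninduced and 70.9, 59.5 and 63.8 CPM induced, did not pass the test (log2 change -0.03, SE 0.06, adjusted p = 0.783).

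The light chain Slc7a11, which imports cystine in exchange for glutamate, went the other way. It stood at 244, 279 and 275 CPM in uninduced and at 97.2, 134 and 140 CPM in induced msx2-line myotubes. The groups did not overlap, and the log2 change was -1.10 (SE 0.11, adjusted p = 2.19e-06). The heavy chain Slc3a1, the partner of Slc7a9 and Slc7a13 in the kidney, fell from 72.4, 62.9 and 66.3 CPM to 40.8, 37.1 and 48.1 CPM (log2 change -0.68, SE 0.12, adjusted p = 0.000403). These Slc3a1 values did not overlap either, but an exon of the gene overlaps Prepl on the opposite strand. Its usual partners were nearly silent: Slc7a9 reached at most 0.374 CPM in any library, and Slc7a13 was at 0.814 ± 0.261 CPM uninduced and 0.838 ± 0.104 CPM induced (adjusted p = 0.91). Slc7a10, a light chain for small neutral amino acids, reached at most 0.236 CPM in any library. Of the 10 light chains of the heteromeric type 8 were tested, of which 3 rose, Slc7a11 fell and 4 did not pass.

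Setting light chain against heavy chain per kilobase of exon shows how unequally the pair members moved. The ratio of Slc7a5 to Slc3a2 was 1.38 ± 0.076 in uninduced and 2.09 ± 0.181 in induced msx2-line myotubes, and 1.39 ± 0.057 and 1.35 ± 0.044 in the GFP line (n = 3 each). The ratio of Slc7a11 to Slc3a2 went from 0.433 ± 0.059 to 0.154 ± 0.032 in the msx2 line, while it was 0.453 ± 0.031 and 0.413 ± 0.032 in the GFP line. Slc7a5 over Slc7a11 was 3.92, 2.7 and 3.13 in the uninduced and 17.7, 10.5 and 13.8 in the induced libraries of the msx2 line. In the GFP line that ratio stayed between 2.96 and 3.43 over all 6 myotube libraries, and in the 4 myoblast libraries it was 1.14 to 1.31. These ratios are descriptions of RNA and were not tested as such.

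**Figure D2:**
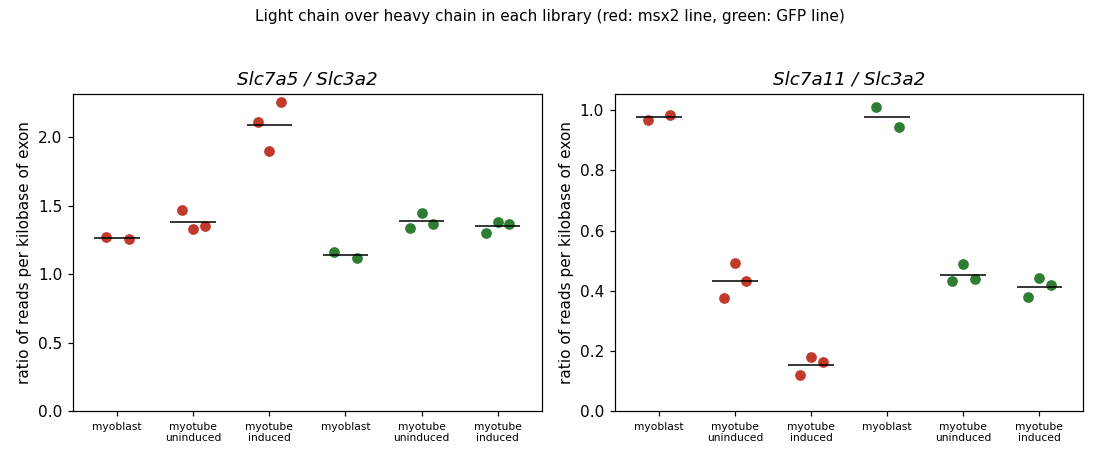
Ratio of reads per kilobase of exon of Slc7a5 (left) and Slc7a11 (right) to the heavy chain Slc3a2 in each library, on linear axes from 0; points are libraries and black lines group means. Induced msx2-line myotubes hold the highest Slc7a5 ratios (1.9 to 2.26) and the lowest Slc7a11 ratios (0.119 to 0.181).

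Slc7a11 is a known target of ATF4, the factor of the amino acid response, through C/EBP-ATF elements, and the promoter windows that hold such letters are shown here beside the light chains. RefSeq windows of 300 bases (250 before and 50 after a start site, build GRCm38.p6) were found for 44 of the 61 members, 65 windows in all. Members without a window, among them Slc7a5, Slc38a1, Slc38a3, Slc6a6 and Slc6a8, were not searched. The letters TGATGCAA, searched on both strands and chosen with the Slc7a11 window in view, were in 294 of 32851 mouse windows (0.895%) and in 4 member windows, of the 3 genes Slc7a11, Slc1a4 and Slc7a7. The windows are printed 5′ to 3′ on the gene's strand with each match in capitals. Slc7a11 (chr3:50443564-50443863, minus strand) holds 2 matches, in opposite directions, that begin 66 and 47 bases before the start site. The match of Slc1a4 (chr11:20332664-20332963, minus strand) begins 4 bases before its start site, and that of Slc7a7 (chr14:54417895-54418194, minus strand, the other Slc7a7 window overlapping it) begins 1 base before.
Slc7a11: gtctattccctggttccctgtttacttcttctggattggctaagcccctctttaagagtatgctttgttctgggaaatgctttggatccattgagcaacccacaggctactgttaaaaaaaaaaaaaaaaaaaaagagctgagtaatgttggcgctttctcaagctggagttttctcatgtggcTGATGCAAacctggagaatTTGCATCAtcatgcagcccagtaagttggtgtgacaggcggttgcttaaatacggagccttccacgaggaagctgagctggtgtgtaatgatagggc
Slc1a4: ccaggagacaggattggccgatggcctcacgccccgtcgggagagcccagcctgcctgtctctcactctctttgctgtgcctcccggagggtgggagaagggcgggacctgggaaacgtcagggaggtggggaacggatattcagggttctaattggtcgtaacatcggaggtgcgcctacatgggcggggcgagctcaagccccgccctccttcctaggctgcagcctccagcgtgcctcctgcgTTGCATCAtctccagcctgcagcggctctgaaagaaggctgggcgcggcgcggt
Slc7a7: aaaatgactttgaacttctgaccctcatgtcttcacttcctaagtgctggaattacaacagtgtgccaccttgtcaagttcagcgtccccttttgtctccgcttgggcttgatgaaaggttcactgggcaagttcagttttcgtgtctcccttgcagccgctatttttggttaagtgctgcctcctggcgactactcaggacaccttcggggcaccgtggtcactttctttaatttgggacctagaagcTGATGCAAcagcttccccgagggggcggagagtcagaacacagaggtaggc
On msx2 induction these 3 genes went 3 ways: Slc7a11 fell, Slc7a7 rose, and Slc1a4 gave a log2 change of 0.01 (SE 0.13, adjusted p = 0.948). Other short motifs were in member windows at shares near those of all windows: TAATTG, a core bound by Msx homeodomains, in 9.23% against 8% of all windows, CAGCTG, an E-box bound by MyoD family factors, in 20% against 16.3%, and TGACNNNGC, the antioxidant response core, in 15.4% against 12.4%. Each was searched on both strands, and a match shows the letters alone.

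The facilitated carriers Slc43a1 (LAT3) and Slc43a2 (LAT4), which let branched-chain amino acids and phenylalanine cross without ions, both rose on msx2 induction. Slc43a2 was at 39.2, 38.5 and 47 CPM in uninduced and at 141, 134 and 141 CPM in induced libraries. The groups lay far apart, and the log2 change was 1.74 (SE 0.09, adjusted p = 2.59e-09). Slc43a1 went from 2, 2.45 and 2.77 CPM to 5.28, 5.91 and 6.3 CPM, also without overlap (log2 change 1.26, SE 0.13, adjusted p = 2.28e-06). The predicted gene Gm45606 overlaps an exon of Slc43a2 on the opposite strand. The third member of the family, Slc43a3, which carries purine bases and not amino acids, was at 2.68 ± 0.413 CPM and 3.46 ± 0.642 CPM and did not pass the test.

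Of the 10 tested Slc38 genes, sodium-coupled neutral amino acid carriers, 1 rose and 3 fell. Slc38a3 (SNAT3), which carries glutamine, asparagine and histidine in either direction, had the largest rise of any member. It was at 0.399, 0.604 and 0.436 CPM in uninduced and at 7.44, 4.88 and 6.37 CPM in induced msx2-line myotubes, a 12.7-fold difference (log2 change 3.67, SE 0.26, adjusted p = 4.81e-08). In all 13 libraries outside the induced msx2 group it stayed below 1 CPM. The abundant amino acid loaders of the cell surface, Slc38a1 and Slc38a2, fell by less. Slc38a1 (SNAT1) went from 118, 129 and 122 CPM to 79.1, 105 and 88.2 CPM (log2 change -0.44, SE 0.09, adjusted p = 0.00185). Slc38a2 (SNAT2) went from 355, 297 and 376 CPM to 257, 237 and 275 CPM (log2 change -0.42, SE 0.12, adjusted p = 0.014). Neither pair of groups overlapped, but the Slc38a2 call was lost without induced replicate 2 (adjusted p = 0.0565) or uninduced replicate 3 (adjusted p = 0.0659). Slc38a9, a lysosomal arginine sensor that signals to mTORC1, fell from 34.3, 29.5 and 35.1 CPM to 28.4, 25.2 and 26.5 CPM (log2 change -0.30, SE 0.08, adjusted p = 0.00852).

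The proton-coupled Slc36 carriers split. Slc36a1 (PAT1), found on lysosomes, rose from 18.1, 16.5 and 14.9 CPM to 23, 24.7 and 22.8 CPM (log2 change 0.51, SE 0.09, adjusted p = 0.0005). Slc36a4 (PAT4) fell from 4.39, 3.98 and 5.14 CPM to 3.34, 3.82 and 3.06 CPM (log2 change -0.41, SE 0.12, adjusted p = 0.019). The Slc36a4 call was lost without induced replicate 1 (adjusted p = 0.0569), induced replicate 3 (adjusted p = 0.0891) or uninduced replicate 3 (adjusted p = 0.113). Slc36a2 and Slc36a3 stayed below 2 CPM in every library and did not pass.

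Of the 5 glutamate carriers of the Slc1 family 1 rose, 1 fell and 3 did not pass. Slc1a1 (EAAT3), the most abundant member, fell from 842, 796 and 791 CPM to 681, 665 and 652 CPM (log2 change -0.28, SE 0.05, adjusted p = 0.000341). The groups did not overlap. Slc1a2 (GLT-1) rose from 3.54, 4.12 and 2.99 CPM to 7.4, 5.12 and 4.31 CPM (log2 change 0.66, SE 0.20, adjusted p = 0.021), a call lost without induced replicate 1 (adjusted p = 0.133) or uninduced replicate 3 (adjusted p = 0.0995). The neutral amino acid exchangers of the family, Slc1a5 (ASCT2, which also carries glutamine), at 21.3 ± 4.12 and 21.7 ± 5.2 CPM, and Slc1a4 (ASCT1), at 29.9 ± 4.93 and 30.2 ± 1.49 CPM, did not pass. Both Slc1a1 and Slc1a2 have an exon overlapped by another gene on the opposite strand.

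Among carriers of the Slc6 family, sodium- and chloride-coupled, the creatine transporter Slc6a8 rose from 86, 116 and 86.1 CPM to 160, 176 and 147 CPM (log2 change 0.74, SE 0.11, adjusted p = 6.53e-05). The taurine transporter Slc6a6, second in level among the Slc6 and Slc1 carriers per kilobase, went from 456, 471 and 450 CPM to 557, 543 and 512 CPM (log2 change 0.23, SE 0.06, adjusted p = 0.00726). The glycine carrier Slc6a9 (GlyT1) rose from 56, 41.3 and 50.1 CPM to 85.6, 66.1 and 91.4 CPM (log2 change 0.72, SE 0.13, adjusted p = 0.000564). In these 3 genes every induced library lay above every uninduced one, and exons of Slc6a9 overlap other genes on the opposite strand. The vesicular neutral amino acid carrier Slc6a17, best known in neurons, rose from 12.6, 10.2 and 10.5 CPM to 17.7, 17.6 and 20 CPM (log2 change 0.74, SE 0.09, adjusted p = 1.26e-05). Slc6a19 (B0AT1), which takes up neutral amino acids in gut and kidney, had the largest fall of any member. It stood at 6.99, 7.32 and 5.98 CPM uninduced and at 0.592, 0.984 and 1.17 CPM induced, 7.24-fold lower (log2 change -2.86, SE 0.20, adjusted p = 9.51e-08). Tmem27, a known partner of it at the membrane, was nearly silent at 0.128 ± 0.0683 and 0.174 ± 0.124 CPM. The proline carrier Slc6a7 also rose but stayed below 1 CPM, and its call was lost with DESeq2 (adjusted p = 0.0503) and without induced replicate 3 (0.0734) or uninduced replicate 3 (0.0758). The cationic carrier Slc7a3 (CAT3) fell from 2.05, 2.6 and 2.3 CPM to 0.549, 2.09 and 1.17 CPM with overlapping groups (log2 change -0.86, SE 0.32, adjusted p = 0.0479). That call was lost without any 1 of 5 of the 6 libraries (adjusted p = 0.0578 to 0.174) and with the low-count filter removed (adjusted p = 0.0533). Slc7a1 (CAT1), the main cationic carrier of most cells, was at 101 ± 4.33 and 95.9 ± 7.22 CPM and did not pass.

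Induction of GFP alone, with the same doxycycline, was tested in the same way. None of the 55 members passed, and none had an unadjusted p under 0.05. Over all 16245 genes 0.0308% were called, and 164 had an unadjusted p under 0.05. DESeq2 called no member and 10 of all genes, and the fit with a replicate block no member and 9. The main fit held no such block, though same-numbered libraries deviated together here (correlations 0.359 to 0.453). A small effect on the members could thus be missed. The log2 changes of the members lay between -0.29 and 0.36. For Slc7a5 the change was 0.02 (SE 0.11), for Slc7a11 -0.07 (SE 0.11), for Slc43a2 -0.07 (SE 0.09), for Slc38a3 -0.15 (SE 0.35) and for Slc6a19 -0.14 (SE 0.17).

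The direct test of whether induction acted differently in the lines, the interaction of line and induction, called 16 members, 11 more positive and 5 more negative in the msx2 line, beside 17.9% of all genes (9.15% and 8.78%). The largest positive differences of log2 change were those of Slc38a3 (3.82, SE 0.44, adjusted p = 2.25e-05), Slc43a2 (1.80, SE 0.13, adjusted p = 2.7e-07), Slc43a1 (1.19, SE 0.19, adjusted p = 0.000368) and Slc7a5 (0.96, SE 0.15, adjusted p = 0.000296). The largest negative ones were those of Slc6a19 (-2.72, SE 0.27, adjusted p = 8.6e-06), Slc7a11 (-1.03, SE 0.16, adjusted p = 0.000273), Slc3a1 (-0.67, SE 0.17, adjusted p = 0.0104) and Slc38a1 (-0.45, SE 0.13, adjusted p = 0.0263). The Slc38a1 difference was lost without any 1 of 5 libraries: GFP-line induced replicate 3 (adjusted p = 0.069) or uninduced replicate 1 (0.0661), or msx2-line induced replicate 1 (0.0686) or 3 (0.0607) or uninduced replicate 2 (0.0533). With the replicate number as a block 21 members and 3824 of all genes were called, beside 16 and 2914 without it. Slc1a2, Slc38a2, Slc38a9, Slc6a6 and Slc7a3 were the members gained.

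**Figure D3:**
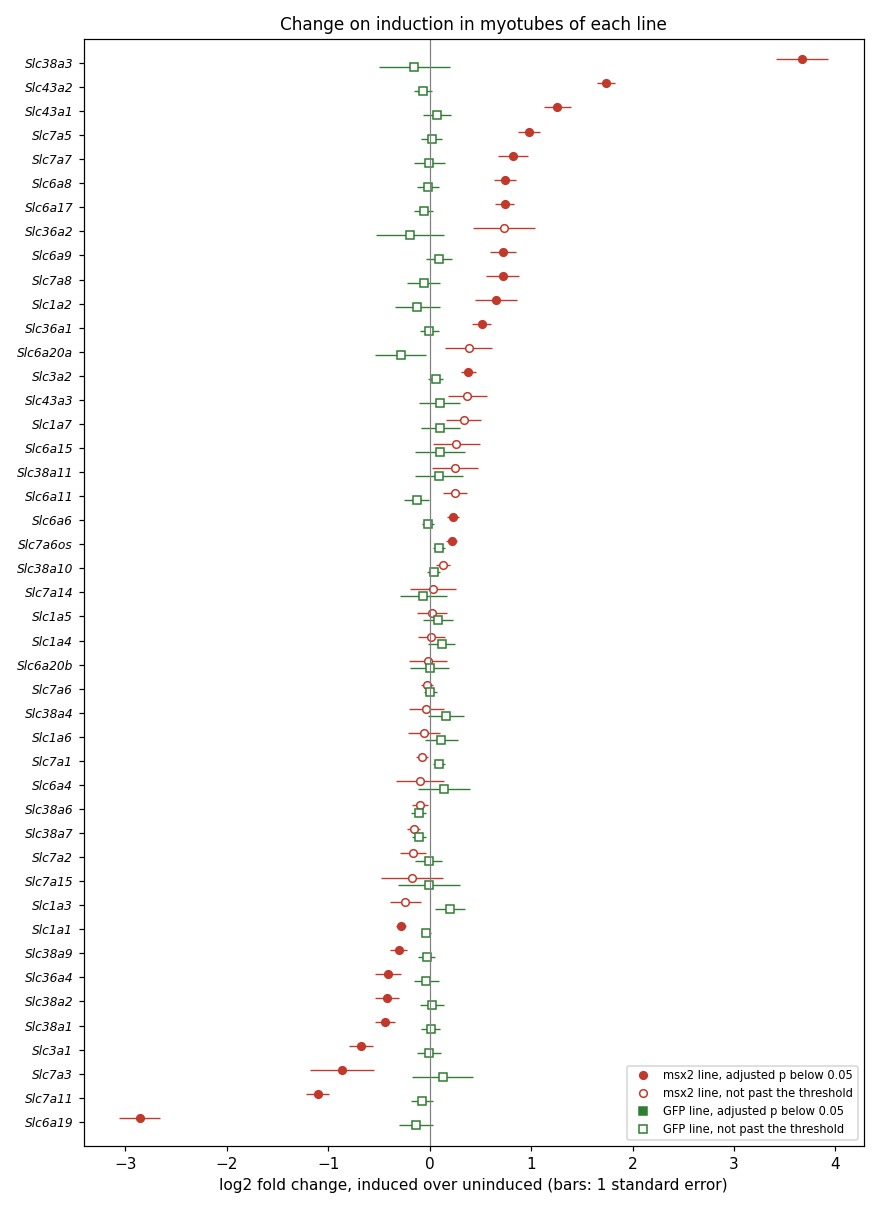
Log2 change on induction of the 45 members that reach 1 CPM in their highest group, in the msx2 line (red circles) and the GFP line (green squares); bars are 1 standard error and filled marks passed the test at an adjusted p below 0.05. Red marks spread from -2.86 (Slc6a19) to 3.67 (Slc38a3), while no green mark is filled.

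Genes that work beside the carriers were counted from lists chosen by function, to be read against the 16.2% of all genes that rose and the 16.3% that fell on msx2 induction. Of 21 genes of ATF4 and the amino acid response, 5 rose on msx2 induction, 11 fell and 5 did not pass. The risers with the smallest p were the transcription factor gene Cebpb (log2 change 1.38, adjusted p = 4.18e-08) and the ATF4 feedback inhibitor Trib3 (1.53, adjusted p = 2.08e-07). The fallers were Psat1, of serine synthesis (-1.09, adjusted p = 3.94e-07), and Mthfd2, of mitochondrial folate metabolism (-1.09, adjusted p = 2.09e-06). Of 28 genes of amino acid, creatine, taurine and glutathione metabolism 5 rose and 5 fell, shares near those of all genes. Glul, which makes glutamine, fell from 54.7 ± 6.72 to 22.8 ± 1.95 CPM (log2 change -1.26, adjusted p = 1.74e-07), and so did the polyamine enzyme Odc1 (-0.74, adjusted p = 3.75e-06). The transaminases Got1 (0.73, adjusted p = 3.21e-06) and Gpt (0.71, adjusted p = 0.000328) rose.

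Of 27 genes that report amino acids to mTORC1, the kinase complex that drives protein synthesis, 3 rose and 6 fell, in sum a share near the 32.5% of all genes. Gatsl3, which codes for the arginine sensor CASTOR1, rose (log2 change 1.83, adjusted p = 7.89e-05), as did the lysosome factor Tfeb (1.29, adjusted p = 0.000443). Mtor (-0.32, adjusted p = 0.000659) and Mios (-0.37, adjusted p = 0.000882) fell. Of 15 tested carriers of amino acids in other families 4 rose and 1 fell. The vesicular glutamate transporter Slc17a7 went from 8.68 ± 0.195 to 244 ± 56.7 CPM (log2 change 4.81, adjusted p = 2.51e-09), and the lysosomal cystine carrier Ctns rose as well (0.58, adjusted p = 2.17e-05), while Slc17a6, a second vesicular glutamate transporter, fell (-0.85, adjusted p = 0.0144). Of 6 tested partners and regulators at the membrane 2 rose, Bsg (0.43, adjusted p = 0.00064) and the ubiquitin ligase Nedd4l (0.30, adjusted p = 0.00347), and 2 fell, Arl6ip5, a binding partner of Slc1a1 (-0.83, adjusted p = 1.61e-05), and the kinase Sgk1 (-0.78, adjusted p = 0.000817). No gene of these 5 lists passed on induction in the GFP line, where 0.0308% of all genes did.

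Setting induced myotubes of the msx2 line against those of the GFP line called 23 members, 14 higher and 9 lower in the msx2 line, beside 35.3% of all genes (17.6% and 17.8%). This comparison shares the induced msx2-line libraries with the induction in that line. Slc38a3 (log2 difference 3.53, SE 0.26, adjusted p = 7.1e-08), Slc43a2 (1.21, SE 0.09, adjusted p = 6.05e-08), Slc1a2 (1.03, SE 0.21, adjusted p = 0.00129) and Slc7a5 (1.03, SE 0.11, adjusted p = 1.99e-06) were higher. Slc6a19 (-2.46, SE 0.21, adjusted p = 4.12e-07), Slc7a11 (-1.03, SE 0.11, adjusted p = 3.61e-06), Slc7a3 (-0.94, SE 0.32, adjusted p = 0.0325) and Slc3a1 (-0.55, SE 0.12, adjusted p = 0.00194) were lower. GFP-line induced libraries held Slc7a5 at 285, 283 and 321 CPM, Slc7a11 at 233, 254 and 275 CPM, Slc43a2 at 67.1, 57.8 and 55.1 CPM, and Slc6a19 at 5.29, 4.62 and 5.54 CPM. None of these 4 genes overlapped with its values in induced msx2-line libraries. Slc7a3 overlapped, and its call was lost without GFP-line replicate 2 (adjusted p = 0.097) or 3 (0.0967), or msx2-line replicate 1 (0.117) or 3 (0.0982).

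Differentiation from myoblasts to uninduced myotubes moved most members, as it moved most genes. In the GFP line 46 of 55 passed, 25 higher and 21 lower, beside 77.7% of all genes (39.8% higher and 37.9% lower), and in the msx2 line 40 passed, 19 higher and 21 lower, beside 79.8% (40.8% and 39%). Across the lines 19 members were higher in both, 18 lower in both and none called in opposite directions. The same cross was not counted over all genes, so it does not set the members apart. The myoblasts differ from the myotubes in medium, isolation and AraC as well as in fusion, and these cannot be told apart. Members with a mean below 1 CPM mostly rose if they changed (8 of 13 in the GFP line), and so did all genes at that level (57.6% of 2062 higher and 4.03% lower).

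The neutral amino acid carriers Slc6a19 and Slc7a8, the heavy chain Slc3a1 and the lysosomal sensor Slc38a9 were among the members that gained most in both lines. Slc6a19 had no read in either GFP-line myoblast library and was at 6.37, 5.42 and 5.24 CPM in GFP-line myotubes, at least 82.1-fold higher than the 0.0692 CPM that 3 reads over both myoblast libraries would give (adjusted p = 1.06e-09). In the msx2 line it went from 0.134 and 0.0411 CPM to 6.99, 7.32 and 5.98 CPM (log2 change 6.22, SE 0.37, adjusted p = 8.44e-10). Slc3a1 was at 12.9 and 11.9 CPM in GFP-line myoblasts and at 65.8, 53.3 and 65.9 CPM in myotubes (log2 change 2.31, SE 0.15, adjusted p = 1.95e-09), with a change of 2.21 (SE 0.15) in the msx2 line. Slc38a9 rose from 8.16 and 7.84 CPM to 40.4, 36.1 and 37.1 CPM (log2 change 2.24, SE 0.10, adjusted p = 2.89e-11), and by 2.22 (SE 0.10) in the msx2 line. For each of these genes all myotube libraries lay above all myoblast libraries of the line. Slc7a8 rose from 0.653 and 0.958 CPM to 8.55, 6.38 and 7.12 CPM in the GFP line (log2 change 3.17, SE 0.25, adjusted p = 1.22e-08; msx2 line 2.80, SE 0.26).

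Slc1a2, Slc6a9, Slc43a2 and Slc6a4 rose in both lines as well, while of the other 4 glutamate carriers none rose in either line. Slc1a2 was at 0.178 to 0.288 CPM in the 4 myoblast libraries and at 2.44 to 4.12 CPM in the 6 uninduced myotube libraries (log2 change 3.81, SE 0.41, in the GFP line and 3.89, SE 0.38, in the msx2 line). Slc6a9 went from 15.8 to 23.6 CPM in myoblasts to 40.8 to 56 CPM in uninduced myotubes (log2 changes 1.5, SE 0.16, in the GFP line and 1.11, SE 0.16). Slc43a2 rose by a log2 change of 1.78 (SE 0.11) in the GFP line and 0.93 (SE 0.11) in the msx2 line. The serotonin carrier Slc6a4 rose by 1.87 (SE 0.39) and 1.80 (SE 0.34) on the log2 scale but never exceeded 1.71 CPM in uninduced libraries. Slc7a5 rose by 0.71 (SE 0.12) and 0.32 (SE 0.12), the latter call being lost without msx2-line myoblast replicate 2 (adjusted p = 0.164) or myotube replicate 1 (adjusted p = 0.0882). Slc3a2 passed in the GFP line (0.43, SE 0.09, adjusted p = 0.000277) and not in the msx2 line (0.18), but the difference between the lines did not pass. In the msx2 line it passed with the replicate block (0.141, adjusted p = 0.0387) and with the filter of 5 CPM in 3 libraries (0.39, adjusted p = 0.000548). It also passed there without myotube replicate 2 (0.238, adjusted p = 0.0184).

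Among the members that fell with differentiation were Slc1a5, Slc43a3 and Slc38a4. Slc1a5, the glutamine exchanger known from dividing cells, was at 102 and 97.1 CPM in GFP-line myoblasts and at 21.4, 24 and 22.8 CPM in GFP-line myotubes (log2 change -2.12, SE 0.16, adjusted p = 1.31e-08; msx2 line -2.38, SE 0.16). Slc43a3 fell from 38.3 and 34.3 CPM to 3.59, 2.54 and 2.35 CPM (log2 change -3.71, SE 0.18, adjusted p = 5.41e-11; msx2 line -3.93, SE 0.18), the largest fall in either line. Slc38a4 (SNAT4), an imprinted carrier, fell from 53.2 and 49.8 CPM to 7.13, 5.79 and 6.39 CPM (log2 change -3.01, SE 0.17, adjusted p = 5.57e-10; msx2 line -2.98, SE 0.17). In all 3 genes every myotube library lay below every myoblast library. Slc43a1 fell by 2.24 in the GFP line and by 2.54 in the msx2 line on the log2 scale, from 13.7 to 14.7 CPM over the myoblast libraries to 2 to 3.19 CPM over the uninduced myotube libraries. The GABA carrier Slc6a11 (-1.88 and -1.77), the glutamate carrier Slc1a3 (-1.51 and -1.92), Slc36a4 (-1.23 and -1.19) and Slc6a17 (-1.17 and -1.18) had smaller log2 falls in the GFP and msx2 lines. Slc7a11 fell from 439 and 420 CPM to 248, 275 and 279 CPM in the GFP line (log2 change -0.69, SE 0.12, adjusted p = 0.000107; msx2 line -0.99, SE 0.12). Per kilobase, Slc7a11 to Slc3a2 was 0.978 ± 0.046 in GFP-line myoblasts and 0.976 ± 0.01 in msx2-line myoblasts (n = 2 each), above all myotube groups.

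**Figure D4:**
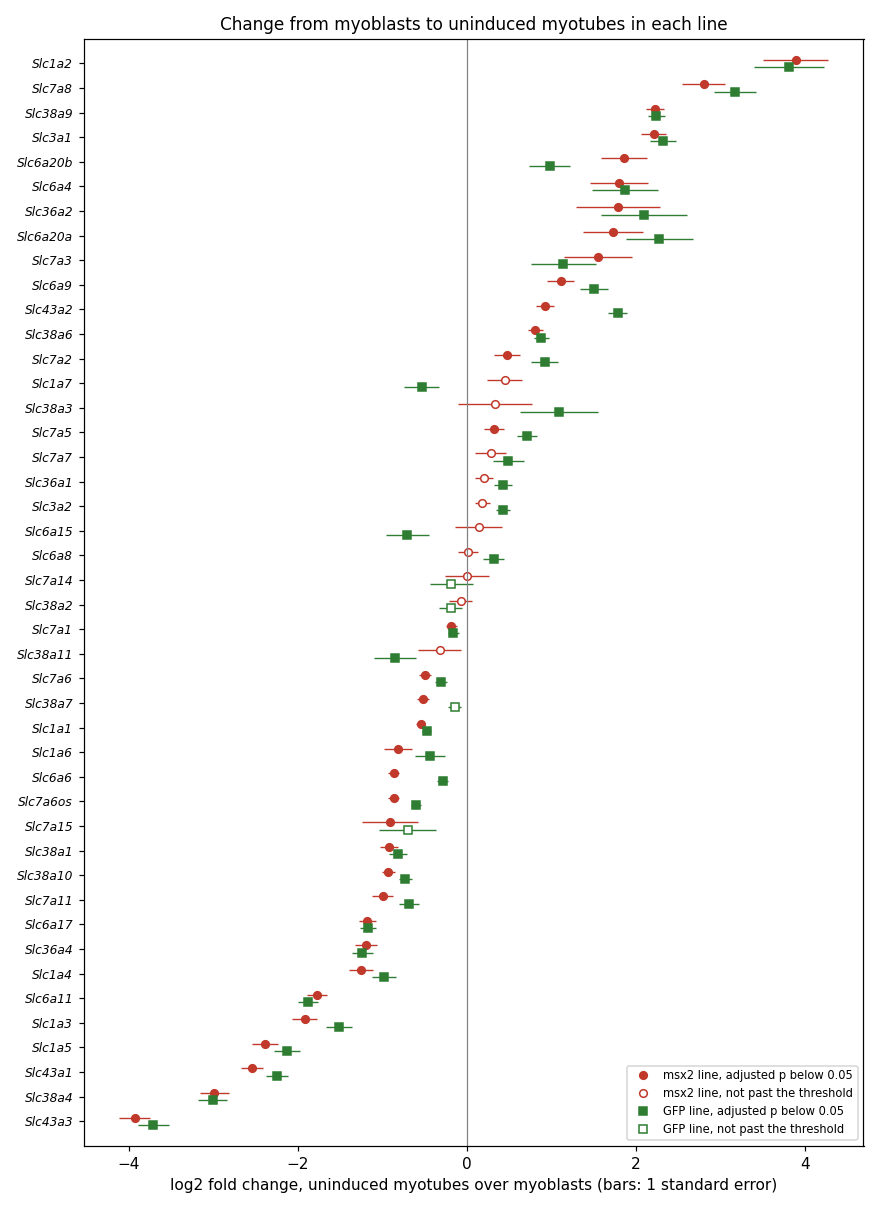
Log2 change from myoblasts to uninduced myotubes of 44 members that reach 1 CPM in their highest group, in the msx2 line (red circles) and GFP line (green squares), with bars of 1 standard error and filled marks for an adjusted p below 0.05. Slc6a19 is left out because GFP-line myoblasts had no read; marks of the 2 lines lie on the same side of 0 for the members from Slc1a2 (3.81 and 3.89) to Slc43a3 (-3.71 and -3.93) that passed in both.

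The directions on msx2 induction can be set beside those of differentiation in the GFP line, which shares no library with it. Of 25 members higher in GFP-line myotubes, 10 rose on msx2 induction, 4 fell (Slc38a9, Slc3a1, Slc6a19 and Slc7a3) and 11 did not pass. Of all 6460 genes higher in GFP-line myotubes, 16.2% rose on msx2 induction and 19.7% fell. In differentiation of the msx2 line itself 6 of the 25 did not pass. Slc36a1, Slc3a2, Slc6a8 and Slc7a7, which belong to the 10, were among them. Of 21 lower ones, 4 rose (Slc43a1, Slc6a17, Slc6a6 and Slc7a6os), 4 fell (Slc1a1, Slc36a4, Slc38a1 and Slc7a11) and 13 did not pass, where of all 6156 lower genes 16.7% rose and 16.4% fell. The 10 include Slc38a3, whose call in GFP differentiation was lost with the replicate block (adjusted p = 0.0649, and 0.0653 with the GC content offset added), with DESeq2 (0.0576), with no low-count filter (0.0513), with only the compared groups (0.0527) and without GFP-line myoblast replicate 1 (0.0691) or 2 (0.205) or myotube replicate 2 (0.0519) or 3 (0.188). They also include Slc6a8, lost with no low-count filter (0.0525) and without myoblast replicate 1 (0.0837) or 2 (0.121) or myotube replicate 2 (0.0967) or 3 (0.052), and Slc7a7, lost without myoblast replicate 2 (0.19) or myotube replicate 1 (0.0664) and with the block and GC content offset together (0.0521). Among the 4 that fell, Slc7a3 was lost without myoblast replicate 1 (0.147), and among the lower ones that rose Slc6a6 was lost with the filter of 5 CPM in 3 libraries (0.0804). The part of the fall in 4 of 6 myotube markers in these changes was not tested. Slc43a1 in induced msx2-line myotubes, at 5.28 to 6.3 CPM, lay between uninduced myotubes and myoblasts, whereas Slc7a11, at 97.2 to 140 CPM, lay below both, and Slc43a2, at 134 to 141 CPM, above both.

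The size of differentiation differed between the lines for 4 members (interaction of line and differentiation, 1 more positive and 3 more negative in the msx2 line, beside 8.28% of all genes, 4.01% and 4.27%). Slc43a2 (-0.86, SE 0.15, adjusted p = 0.00232) and Slc6a6 (-0.58, SE 0.09, adjusted p = 0.00146) had lower changes in the msx2 line. Slc6a6 fell from 635 and 642 CPM to 534, 548 and 489 CPM in the GFP line and from 832 and 839 CPM to 456, 471 and 450 CPM in the msx2 line. The calls of Slc38a7 (-0.38, adjusted p = 0.0396) and Slc1a7 (0.98, adjusted p = 0.0488) were lost when the low-count filter was removed (adjusted p = 0.0605 and 0.0562), and each was lost without any 1 of 9 of the 10 libraries (adjusted p = 0.0574 to 0.185 for Slc38a7 and 0.0615 to 0.222 for Slc1a7).

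Before induction few members passed between the lines. In uninduced myotubes Slc43a2 alone passed and was lower in the msx2 line, beside 0.0616% of all genes (0.00616% higher and 0.0554% lower): 39.2, 38.5 and 47 CPM in the msx2 line against 69, 61.4 and 58.5 CPM in the GFP line (log2 difference -0.60, SE 0.09, adjusted p = 0.0272). The groups did not overlap, but the call was lost without GFP-line replicate 1 (adjusted p = 0.132) or 2 (0.105) or msx2-line replicate 1 (0.079) or 2 (0.0944). It was also lost in a fit to the compared groups alone (adjusted p = 0.311). In myoblasts 4 members were higher in the msx2 line, and none lower, beside 16.3% of all genes (9.09% and 7.24%): Slc1a6, a glutamate carrier (0.63, SE 0.18, adjusted p = 0.0297), Slc7a5 (0.46, SE 0.13, adjusted p = 0.0256), Slc6a6 (0.39, SE 0.07, adjusted p = 0.00211) and Slc3a2 (0.31, SE 0.09, adjusted p = 0.0334). Their levels in the 2 msx2-line and then the 2 GFP-line myoblast libraries were 5.26 and 5.47 against 3.59 and 3.33 CPM for Slc1a6, and 257 and 234 against 179 and 177 CPM for Slc7a5. They were 832 and 839 against 635 and 642 CPM for Slc6a6, and 174 and 160 against 133 and 137 CPM for Slc3a2. None of these 4 genes overlapped, but 33 of the 55 tested members did not overlap between these libraries, and this was not counted over all genes. The calls of Slc1a6, Slc7a5 and Slc3a2 depended on single libraries. Without msx2-line replicate 1, which leaves 1 library in that group, their log2 differences were 0.656, 0.387 and 0.242. With the replicate number as a block 10 members passed, 9 higher and 1 lower. Over all genes 3864 passed with the block, 2354 higher and 1510 lower, against 2652 without it.

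Slc7a15, a further light chain of the family and among the most abundant members per kilobase, varied more between replicates than on induction. It stood at 192, 290 and 162 CPM in uninduced and 166, 263 and 140 CPM in induced msx2-line myotubes (replicates 1, 2 and 3), and at 221, 328 and 177 CPM and 226, 317 and 180 CPM in the GFP line. Replicate 2 was 1.56 to 1.72 times the mean of the other two in all 4 myotube groups, while in myoblasts, at 377 to 417 CPM, replicate 2 was 0.92 and 0.933 times replicate 1. It did not pass on induction in either line. On differentiation it passed in the msx2 line (log2 change -0.91, adjusted p = 0.025), a call lost without myoblast replicate 1 (0.0803) or 2 (0.0531) or myotube replicate 1 (0.0709) or 3 (0.0804). In the GFP line Slc7a15 did not pass on differentiation in the main fit. It passed there with the replicate number as a block (log2 change -0.569, adjusted p = 0.00876) and without myotube replicate 2 (-0.992, adjusted p = 0.0215). The genes whose deviations from the group means were most like those of Slc7a15 over the 16 libraries were Tbce (Pearson r = 0.996), Ccdc171 (0.995), Rbbp8 (0.993) and Ankrd12 (0.993), chosen for that likeness from all tested genes. Next came A130040M12Rik (0.991), Abi1 (0.988), Tdrd9 (0.987), the olfactory receptor gene Olfr1033 (0.986), Sntg1 (0.983) and Slco1a6 (0.981). Whether the reads counted for Slc7a15 come from its own transcript was not tested.

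**Figure D5:**
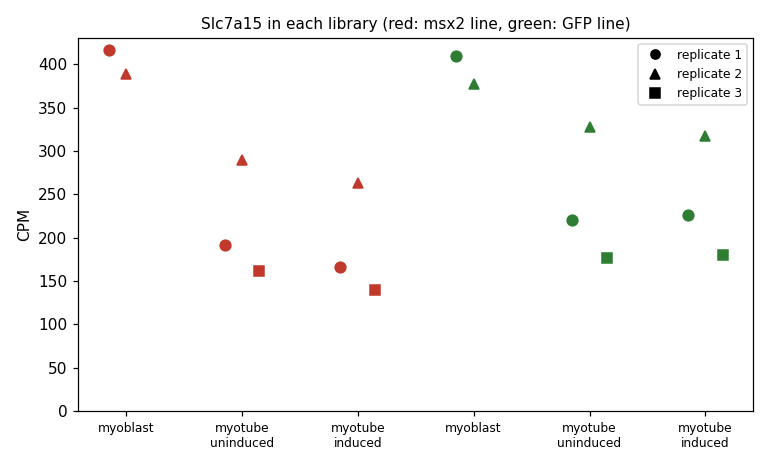
Level of Slc7a15 in each library in CPM, on a linear axis from 0, by group (red, msx2 line; green, GFP line), with a marker shape for each replicate number. Replicate 2 (triangles) is highest in all 4 myotube groups, at 263 to 328 CPM.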

How the data were processed

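RNA sequencing covered 16 libraries of 6 groups. Per the labels' protocols, each library took 500 ng of RNA through a stranded mRNA kit and 12 cycles of amplification. The deposited values are counts, whole numbers of reads per gene, in a table of 19866 rows. Tools named in the submitters' processing notes are edgeR 3.6.8, SAMtools 0.1.19 and TopHat2 2.0.11, with mm9 as the build. How reads were counted, with which gene models and whether by strand, is not given in the sources used here. Rows with no symbol, 67 in number and 0.0601 to 0.0878% of the reads, did not enter. The annotation at hand is of another build (GRCm38) and gave only exon lengths, GC content and overlaps, so coordinates are given for the RefSeq promoter windows alone, on GRCm38.p6, and not for counted genes. All 61 members matched it by symbol.

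All 16 libraries entered a single model, a coefficient for each group, in edgeR 4.0.16 under R 4.3.3 with limma 3.58.1, after filterByExpr (minimum count 10) and TMM scaling. The 9 comparisons used its robust quasi-likelihood F-test (two-sided), with Benjamini-Hochberg adjustment over 16245 genes and a threshold of 0.05. Printed log2 changes are shrunken, and standard errors are the unshrunken log2 change over the square root of F. A group without reads was set at a floor of 3 counts over the group, for counting error only.

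Replicate numbers pair the libraries by the data in msx2 induction (correlations of same-numbered deviations 0.207 to 0.508), GFP induction (0.359 to 0.453) and uninduced lines (0.177 to 0.288). In induced lines the correlations were 0.091 to 0.247, and each msx2-line library still correlated best with its same-numbered GFP-line library. In differentiation and myoblasts they were -0.01 to 0.04. The settings varied were scaling (RLE), the low-count filter (none, or 5 CPM in 3 libraries), the test (DESeq2 1.42.0), the replicate number as a block, a fit to the compared groups alone, the omission of single libraries and, chosen after seeing the data, a block with a GC offset. The members described in every library were the up to 8 largest rises and falls on msx2 induction and on differentiation in both lines, up to 4 each way in the other comparisons (mean of 1 CPM or more where higher), and the heteromeric exchangers. Some genes of the families and lists are not reported here by name. The members, lists and rules were chosen with earlier results of these data known.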

Additional observations from a re-analysis of the deposited data

Results flagged for a closer look

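The interaction of line and induction passed for 16 members, whose changes on induction therefore differed between the lines (difference of log2 changes, msx2 line minus GFP line). Positive differences were found for Slc38a3 (3.82), Slc43a2 (1.80), Slc43a1 (1.19), Slc7a5 (0.96), Slc7a7 (0.83, adjusted p = 0.0136), Slc6a17 (0.80, adjusted p = 0.000456), Slc7a8 (0.78, adjusted p = 0.0274), Slc6a8 (0.76, adjusted p = 0.00233), Slc6a9 (0.63, adjusted p = 0.0285), Slc36a1 (0.52, adjusted p = 0.0124) and Slc3a2 (0.33, adjusted p = 0.0448). Negative ones were found for Slc6a19 (-2.72), Slc7a11 (-1.03), Slc3a1 (-0.67), Slc38a1 (-0.45) and Slc1a1 (-0.25, adjusted p = 0.0205). Of these, Slc3a2 lost its call without any 1 of 8 of the 12 myotube libraries (adjusted p = 0.0571 to 0.117), Slc6a9 without any 1 of 7 (0.0527 to 0.0713) and Slc7a8 without any 1 of 5 (0.0518 to 0.0739).

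The interaction of line and differentiation passed for 4 members, Slc43a2 (-0.86), Slc6a6 (-0.58), Slc38a7 (-0.38) and Slc1a7 (0.98). In the GFP line Slc1a7 fell from 3.73 and 3.06 CPM to 2.48, 2.14 and 2.41 CPM, a call lost without myoblast replicate 1 (adjusted p = 0.2) or myotube replicate 2 (0.0702). In the msx2 line it was at 1.78 and 3.25 CPM and then at 3.29, 3.8 and 3.24 CPM, which did not pass. No group held 4 or more libraries, so no library was tested as standing apart within its group. In uninduced msx2-line myotubes the chi-square per degree of freedom was 31.26 and 22.59 for pairs with replicate 2 and 13.77 for the other pair. In induced ones it was 24.25 and 20.91 against 10.84. In the GFP line it was 12.82 and 16.21 against 16.6 in uninduced and 12.13 and 11.91 against 10.5 in induced myotubes.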

How the results depend on the processing

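The counts of members called in msx2 induction, GFP induction, the induction difference, msx2 differentiation and induced lines stayed within 1.5 times under every alternative tried. The others moved. With the replicate block 10 members were called in myoblast lines, beside 3864 of all genes against 2652 in the main fit. It called 47, 43, 24 and 5 members in GFP differentiation, msx2 differentiation, induced lines and the differentiation difference. Over all genes it called 12857, 13196, 6626 and 2264 there, against 12616, 12964, 5740 and 1345 in the main fit. No member's call changed with it in msx2 induction or uninduced lines. With only the compared groups, the differentiation difference gave 2 members, uninduced lines 0 and myoblast lines 11. Over all genes these fits gave 1110 of 16083, 1 of 15780 and 5173 of 14274. Without the low-count filter the differentiation difference gave 2 members and 1200 of 19799 genes. DESeq2 gave 7 members and 3006 of all genes in myoblast lines. The filter of 5 CPM in 3 libraries left 34 members to test and 28 called in GFP differentiation, beside 10028 of 12204 genes. The block with a GC offset gave 2 members and 276 of 16153 genes in uninduced lines. Leaving out 1 library in turn gave 19 to 25 in msx2 induction, 0 in GFP induction, 13 to 17 in the induction difference, 39 to 45 in GFP and 36 to 41 in msx2 differentiation, 2 to 3 in the differentiation difference, 20 to 22 in induced lines, 0 to 1 in uninduced and 1 to 4 in myoblast lines. Where that left a myoblast group with 1 library, it was taken to vary like the other groups. The cause was not tested, except that fewer members or libraries entered where stated. Among values of single members 1851 kept direction and call, 178 lost the call, and 1 reversed, Slc7a1 in msx2 differentiation under the 5 CPM filter (log2 change 0.02, adjusted p = 0.776).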

Other observations

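The members tested at a mean below 1 CPM, 13 in all, gave 1 call on msx2 induction, Slc6a7, beside 10.4% of all genes at that level called higher and 2.57% lower. At 10 CPM or more 9 of 27 members rose and 6 fell, beside 17.4% and 21.6% of all genes at that level.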
